A study of Mus musculus with 10 samples.

Results

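The Elavl and Celf genes encode related families of RNA-binding proteins. Their ribosome footprints were followed in mouse neocortex across 5 stages of neurogenesis. The 10 genes (Elavl1, Elavl2, Elavl3 and Elavl4, and Celf1, Celf2, Celf3, Celf4, Celf5 and Celf6) were taken from the footprint count table by the gene symbol of each Ensembl identifier. They are 10 of the 22373 genes in the table. All 10 were among the 13484 genes kept for testing. A gene was kept when the 2 libraries of some stage together held at least 32 of its footprints.

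Elavl proteins, also called Hu proteins, bind U-rich and AU-rich stretches of RNA through RNA recognition motifs, and they can stabilise an mRNA, change its translation or change its splicing. Elavl1 (HuR) is made in most cell types. Elavl2 (HuB), Elavl3 (HuC) and Elavl4 (HuD) are largely neuronal and are used as markers of young and mature neurons. Celf proteins bind GU-rich RNA and act in alternative splicing, mRNA decay and translation. Celf1 and Celf2 are made in many tissues, whereas Celf3, Celf4 and Celf5 are mainly found in the nervous system.

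Ribosome profiling (Ribo-seq) sequences the mRNA fragments that a ribosome shields from nuclease, called footprints. A count of footprints therefore depends on how much of an mRNA is present and on how densely ribosomes cover it, and these were not separated here. Neocortex was taken at embryonic days E12.5, E14, E15.5 and E17 and on the day of birth, P0, with 2 libraries per stage. All groups were wild-type CD-1 mice of both sexes with no treatment, apart from the RNase T1 and RNase A digestion that every lysate received. Each library was a pool of brains, so a p-value measures the spread between pools and not between animals. The tissue is a mixture of cell types, and fewer cells of a type cannot be told apart from less RNA per cell.

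The libraries held 7544404 to 36129988 counts, of which 32797 to 174356 fell on the 10 genes. The smallest count of any member in a library was 88, for Celf6. P0 replicate 1 was the shallowest library, and the P0 replicates differed most. The SD of the log2 ratio between replicates over 4559 well-covered genes was 0.524 at P0 and 0.124 to 0.213 at the other stages. All 8 neuron markers and all 8 progenitor markers had footprints at every stage. That presence does not verify the tissue label, since the listed choroid plexus, meninges and ganglionic eminence markers had footprints at every stage too.

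Levels are given as counts relative to library size (CPM), scaled by trimmed mean of M values (TMM) factors that align the bulk of genes between libraries. A gene was called when limma-voom gave an adjusted p under 0.05 (Benjamini-Hochberg over all 13484 genes) and a change of at least 0.32 on the log2 scale. Changes are fitted log2 fold changes with their standard error (SE). CPM values are not divided by coding length, so they compare stages within a gene and not one gene with another.

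RefSeq promoter windows of build GRCm38.p6, from 250 bases before to 50 bases after a transcript start, were found for 9 of the 10 genes (32 windows). The E-box letters CAGCTG, which read the same on both strands and are a form bound by proneural bHLH factors, occurred in 11 of the 32 windows, spread over 6 genes, and in 16.3% of all 32851 windows. CATCTG or its complement CAGATG occurred in 6 windows of 2 genes and in 17.2% of all windows. TATAAA or its complement occurred in 4 windows of 3 genes and in 13.6% of all windows. Overlapping windows of a gene share the same match. The 9 genes had 32 windows, whereas all 32851 windows came from 27025 genes. No share per gene was computed, so these counts cannot show an excess. The stretches below come from Elavl3 and Elavl4, the pair of neuronal Elavl genes whose change from E12.5 to P0 differed most, and were chosen with these values known. Both genes lie on the minus strand. That of Elavl3, chr9:22052043-22052072, runs from 49 to 20 bases before the start, and that of Elavl4, chr4:110287550-110287579, from 52 to 23 bases before one of its starts. Capitals mark CAGCTG in both, TATAAA in Elavl3 and CAGATG in Elavl4.
Elavl3: cgctggCAGCTGcctcTATAAAgggctggg
Elavl4: tggcttCAGCTGaCAGATGgtcccataaat
A match of letters is a description and not a measured binding site.

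**Figure D1:**
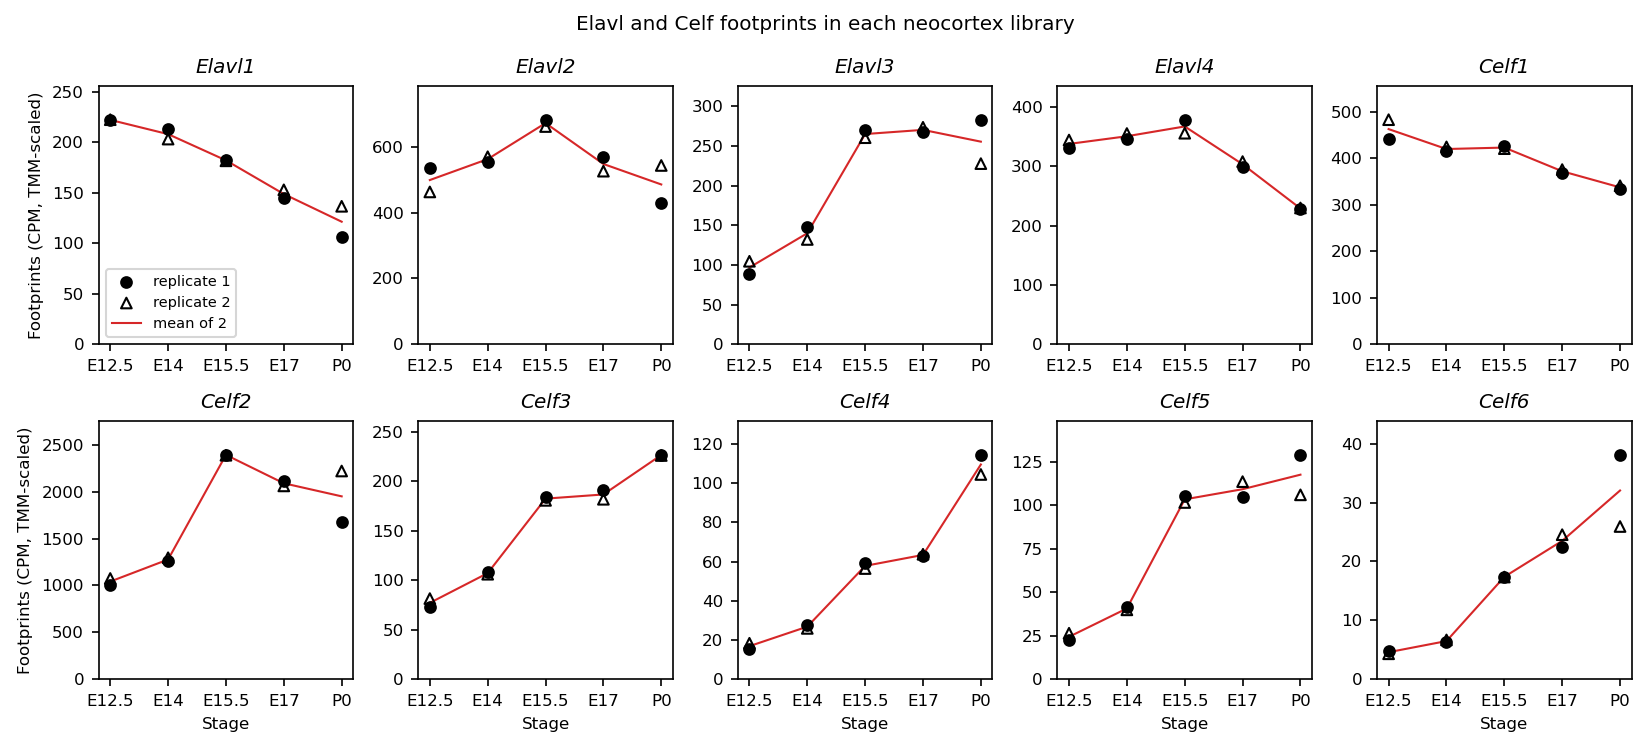
Footprints of each gene in CPM (TMM-scaled, vertical axis starting at 0, with its own range per gene) at the 5 stages. Filled circles are replicate 1, open triangles replicate 2 and the line joins the mean of 2. Elavl1 descends from 222 CPM at E12.5 to 121.3 at P0, while Celf4 climbs from 16.8 to 109.6.

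Of the Elavl family, Elavl3 had more footprints later in development and Elavl1 fewer. Elavl3 (ENSMUSG00000003410) was at 88.9 and 104.6 CPM at E12.5, 147.8 and 132.1 at E14, then 269.6 and 260.4 at E15.5, 267 and 273.5 at E17, and 283.1 and 227.7 at P0. The libraries of E12.5 lay lowest, those of E14 next, and those of E15.5, E17 and P0 could not be ordered, since their ranges overlapped. The step from E14 to E15.5 was a rise of 0.92 on the log2 scale (SE 0.13, adjusted p = 0.00108, limma-voom), or 1.90-fold. Between E12.5 and P0 it rose by 1.39 (SE 0.13, adjusted p = 3.91e-05). HuC is an early and lasting product of postmitotic neurons.

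Elavl4 (ENSMUSG00000028546), whose product HuD is known for stabilising the mRNA of the growth-cone protein Gap43, behaved differently. Its libraries were at 331 and 344.1 CPM at E12.5, 345.9 and 355.1 at E14, then 378.4 and 355.6 at E15.5, 298.7 and 307.8 at E17, and 227.9 and 229.6 at P0. The first 3 stages lay close together, with E15.5 highest, and both P0 libraries were the lowest of all 10. The difference between E15.5 and E14 was 0.066 (SE 0.083, adjusted p = 0.584). From E17 to P0, Elavl4 fell by 0.41 (SE 0.083, adjusted p = 0.013) and between E12.5 and P0 by 0.56 (SE 0.083, adjusted p = 0.000503).

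Elavl2 (ENSMUSG00000008489), which encodes HuB, traced a low arch. It was at 535 and 462.8 CPM at E12.5, 555.2 and 569.7 at E14, then 682.3 and 661.5 at E15.5, 569.5 and 525.9 at E17, and 427.8 and 543.2 at P0. Both E15.5 libraries stood above the other 8, and the 2 P0 libraries spanned the 2 of E12.5. Neither E15.5 against E14 (log2 0.26, SE 0.13, adjusted p = 0.163) nor P0 against E12.5 (log2 -0.049, SE 0.13, adjusted p = 0.758) passed the threshold.

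Elavl1 (ENSMUSG00000040028), the family member made in dividing cells as well as in neurons, was lower at each later stage in TMM-scaled CPM. Its CPM values were 221.8 and 222.2 at E12.5, 212.8 and 203 at E14, then 182.4 and 181.5 at E15.5, 144.5 and 152.8 at E17, and 106 and 136.5 at P0. The libraries of the 5 stages did not overlap, although no step between adjacent stages passed the threshold (E15.5 against E14: log2 -0.19, SE 0.12, adjusted p = 0.244). Over the whole span, P0 against E12.5, Elavl1 fell by 0.87 (SE 0.12, adjusted p = 0.000341), to 0.547 of its E12.5 level. The stepwise order depended on the scaling. Scaled by total counts alone, Elavl1 was at 181.1 and 177.3 CPM at E14 and 193.3 and 191.5 at E15.5. Its P0 libraries (129.2 and 160.3) then overlapped those of E17 (158.2 and 170.1).

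In the Celf family, 5 of the 6 genes had more footprints at E15.5 than at E14, and Celf1 stood apart. Celf1 (ENSMUSG00000005506), the CUG-binding protein known from myotonic dystrophy, was at 442.4 and 482.9 CPM at E12.5, 415.2 and 424.4 at E14, then 425.3 and 420.6 at E15.5, 368.4 and 375.6 at E17, and 333.9 and 340.8 at P0. E14 and E15.5 overlapped (log2 0.011, SE 0.085, adjusted p = 0.942), and the P0 libraries were the lowest. P0 against E12.5 was a fall of 0.45 (SE 0.085, adjusted p = 0.00178).

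Celf2 (ENSMUSG00000002107) collected the most counts of the 10 genes, 482653 over all libraries, a number that also depends on the length of its coding sequence. It was at 1008 and 1074 CPM at E12.5, 1258 and 1295 at E14, then 2397 and 2389 at E15.5, 2118 and 2062 at E17, and 1680 and 2221 at P0. The 2 E15.5 libraries were the highest and nearly equal, and the P0 libraries lay on either side of those of E17. From E14 to E15.5 it rose by 0.91 (SE 0.13, adjusted p = 0.0012), and across E12.5 to P0 by 0.89 (SE 0.13, adjusted p = 0.00045). Both P0 libraries lay below both of E15.5 in TMM-scaled CPM. Scaled by total counts alone, these stages overlapped, at 2541 and 2521 CPM at E15.5 and 2047 and 2608 at P0.

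Celf3 (ENSMUSG00000028137), a splicing regulator of the nervous system, was at 72.6 and 81.3 CPM at E12.5, 108.1 and 105.9 at E14, then 184 and 180.5 at E15.5, 191.3 and 181.6 at E17, and 226.8 and 225.8 at P0. E15.5 and E17 overlapped, and every other pair of adjacent stages was separate. Celf3 rose by 0.77 from E14 to E15.5 (SE 0.089, adjusted p = 0.000461) and by 1.56 between E12.5 and P0 (SE 0.091, adjusted p = 2.97e-06).

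Celf4 (ENSMUSG00000024268), which binds many mRNAs of excitatory neurons and whose loss causes seizures in mice, had separate libraries at all 5 stages. It was at 15.4 and 18.3 CPM at E12.5, 27.6 and 25.9 at E14, then 59.2 and 56.5 at E15.5, 63.1 and 63.8 at E17, and 114.7 and 104.5 at P0. Its rise passed the threshold at 2 separate steps, by 1.11 from E14 to E15.5 (SE 0.11, adjusted p = 0.000231) and by 0.78 from E17 to P0 (SE 0.11, adjusted p = 0.00298). From E12.5 to E14 it was higher by 0.67 (SE 0.12, adjusted p = 0.0511, limma-voom), just short of the threshold. P0 exceeded E12.5 by 2.70 (SE 0.11, adjusted p = 7.4e-07), or 6.48-fold.

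Celf5 (ENSMUSG00000034818), another member found mainly in the brain, was at 22.3 and 26.4 CPM at E12.5, 41.4 and 39.8 at E14, then 105.2 and 101.6 at E15.5, 104.9 and 113.6 at E17, and 129.2 and 106 at P0. Of the last 3 stages, each overlapped the next, and all 6 of their libraries were above the earlier 4. It rose by 1.35 from E14 to E15.5 (SE 0.13, adjusted p = 0.000184) and by 2.26 between E12.5 and P0 (SE 0.13, adjusted p = 2.73e-06).

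Celf6 (ENSMUSG00000032297), a splicing and mRNA-decay regulator, had the fewest counts, 4343 in all. It was at 4.84 and 4.30 CPM at E12.5, 6.27 and 6.66 at E14, then 17.4 in both libraries at E15.5, 22.4 and 24.6 at E17, and 38.2 and 25.9 at P0. No 2 stages overlapped, but the P0 replicates were far apart. It rose by 1.42 from E14 to E15.5 (SE 0.19, adjusted p = 0.000739) and by 2.75 between E12.5 and P0 (SE 0.20, adjusted p = 8.83e-06), or 6.73-fold.

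**Figure D2:**
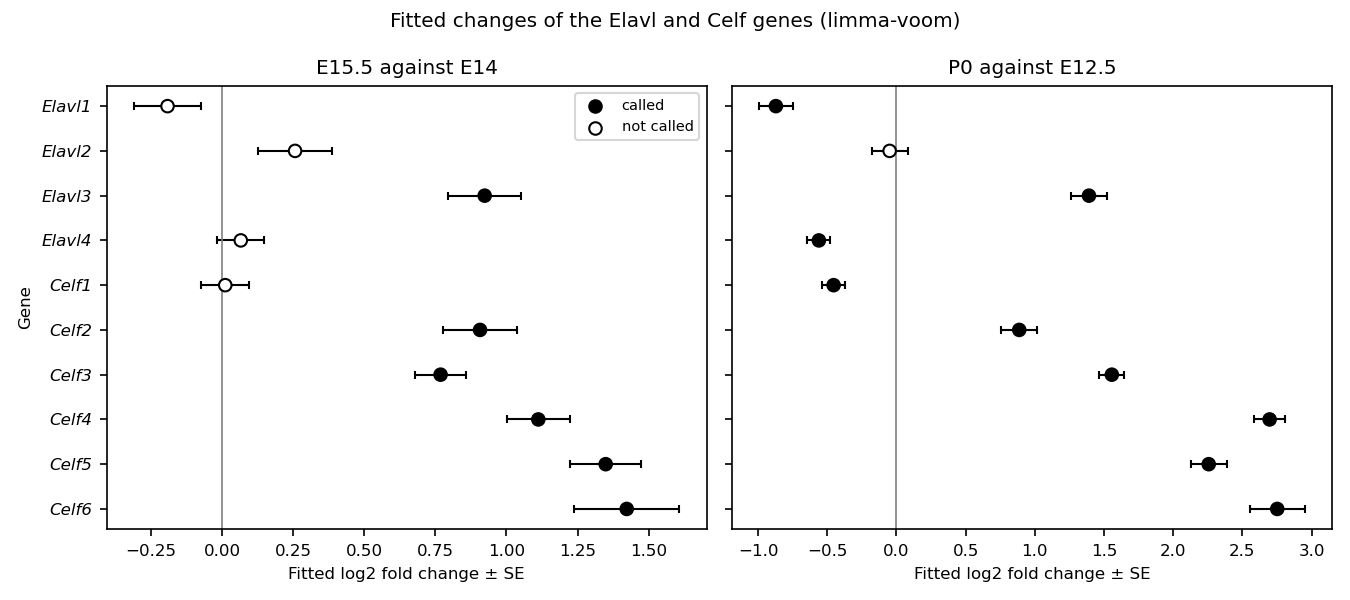
Fitted log2 fold change (limma-voom, horizontal axis, bars ± SE) of each gene for the E15.5 against E14 step (left) and P0 against E12.5 (right), with filled points for genes called. At E15.5, 6 genes are called and all lie right of 0, and by P0 Elavl1, Elavl4 and Celf1 are called on the left.

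Set side by side, the members gave different counts at each step. From E14 to E15.5, 6 of the 10 members were called and all 6 (Elavl3, Celf2, Celf3, Celf4, Celf5 and Celf6) were higher, where 16.5% of all genes tested were called higher, 19.6% lower and 36.1% in either direction. The median fitted log2 fold change was 0.84 over the 10 members, 0.16 over the Elavl genes and 1.01 over the Celf genes, beside -0.0086 over all genes tested. By CPM alone, both E15.5 libraries lay above both of E14 for 8 members (38.1% of all genes) and below for 1, Elavl1 (38.8%). The first step, E14 against E12.5, gave 0 of 10 members with limma-voom, where 0.638% of all genes were called, 0.497% higher and 0.141% lower. At an unadjusted p under 0.05 there were 5 members at that step (15.8% of all genes), edgeR called 0 (0.63%) and DESeq2 called 4, Elavl3, Celf3, Celf4 and Celf5 (2.96%). Both E14 libraries nevertheless lay above both of E12.5 in CPM for 8 members (27% of all genes) and below for 2, Elavl1 and Celf1 (26.2%).

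From E15.5 to E17 limma-voom called 0 of 10 members (9.04% of all genes, 5.61% higher and 3.43% lower), with 3 at an unadjusted p under 0.05 (25.6%) and 0 by either edgeR (7.28%) or DESeq2 (7.65%). The E17 libraries lay above those of E15.5 for 2 members (34% of all genes) and below for 5 (33.8%). Leaving out either P0 library changed the shared estimate of spread, and with it the calls at this step and at the first step. With 1 library left out, the log2 change of Celf6 at this step ran from 0.37 to 0.50. At the first step Elavl3 ran from 0.42 to 0.65, Celf3 from 0.40 to 0.56 and Celf4 from 0.55 to 0.80. Celf5 ran from 0.62 to 0.87 there and Celf6 from 0.42 to 0.59. From E17 to P0, 2 of 10 members were called, Celf4 higher (9.46% of all genes) and Elavl4 lower (11.1%), with 20.5% of genes called in either direction. The P0 libraries lay above those of E17 for 3 members (26.9% of all genes) and below for 3 (28.9%). That step rests on few libraries. Without E17 replicate 1 or 2 the change of Elavl4 was about as large, -0.43 or -0.39, but its adjusted p was 0.0845 or 0.0823. Without P0 replicate 2 there were 5 members called (Elavl1, Elavl2, Elavl4, Celf4 and Celf6), and 33.7% of all genes.

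Over the whole span, P0 against E12.5, 9 of the 10 members were called, where 62.1% of all genes were. There were 6 higher (30.1% of all genes) and 3 lower (32% of all genes), with Elavl2 not called. The CPM ranges were apart for the same 9 members, 6 higher (36.4% of all genes) and 3 lower (38.8%). The median change was 2.48 over Celf3, Celf4, Celf5 and Celf6, -0.30 over the Elavl genes, and -0.013 over all genes tested. An F test over the 5 stages also passed 9 of the 10 members (63.8% of all genes), and Elavl2 had an adjusted p of 0.059. The 6 calls of E15.5 against E14 and the 9 calls of P0 against E12.5 were each kept in all 10 fits that left out 1 library.

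Of the members called for P0 against E12.5, the falls of Elavl4 and Celf1 depended on how libraries were scaled, whereas the 6 rises and the fall of Elavl1 stayed called under each scaling run. Scaled by total counts alone, the median of all genes shifted to 0.29 for E15.5 against E14, and to 0.51 for P0 against E12.5, and 94 genes chosen by histone-type symbols took 33.8% to 39.6% of counts at E12.5 and E14 and 6.60% to 19.3% later. With that scaling E15.5 against E14 had 8 members higher and 0 lower, and 32.7% of all genes higher and 12.3% lower. The added members were Elavl2 at 0.55 (adjusted p = 0.0102) and Elavl4 at 0.36 (adjusted p = 0.00999). P0 against E12.5 had 7 members higher and 1 lower, in place of 6 and 3, while the share of all genes went from 30.1% to 47.8% higher and from 32% to 18.6% lower. For P0 against E12.5, Elavl4 was then at -0.032 (adjusted p = 0.757) and Celf1 at 0.076 (adjusted p = 0.434), Elavl2 was called higher at 0.48 (adjusted p = 0.0106), and Elavl1 was still lower at -0.34 (adjusted p = 0.0261). Relative to the median gene, both scalings gave nearly the same value, -0.55 for Elavl4, -0.44 for Celf1 and -0.86 for Elavl1. Scaling moves all genes of a library by about the same amount, so this agreement was fixed in advance. It adds no support to the falls, which are given only relative to the median gene. The call of Elavl4 from E17 to P0 was also lost with total counts, at -0.29.

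The makeup of each family was also followed without any library scaling, as the share of the family's footprint counts in each library that fell on each gene. These shares are not divided by coding length, so only their change over stages is read. Elavl3 held 8.39% ± 1.18 (SD, n = 2) of Elavl counts at E12.5, 17.8% ± 0.018 at E15.5 and 23.6% ± 5.0 at P0. Elavl1 went from 19.2% ± 0.53 to 11.1% ± 1.3 and Elavl4 from 29.2% ± 1.6 to 21.0% ± 1.1, and in each of these 3 genes the E12.5 and P0 libraries did not overlap. Elavl2 held 43.1% ± 3.3 at E12.5 and 44.4% ± 4.8 at P0, ranges that overlap.

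Celf1 went from 28.4% ± 0.26 of Celf counts at E12.5 to 13.3% ± 0.036 at E15.5 and 12.3% ± 1.4 at P0. Celf2 took 64.0% ± 0.52, 75.3% ± 0.20 and 70.0% ± 4.8 at those stages. The shares of the other 4 were small and larger at P0 than at E12.5 in every library. Celf4 went from 1.03% ± 0.073 to 4.00% ± 0.77 and Celf6 from 0.282% ± 0.038 to 1.19% ± 0.46.

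**Figure D3:**
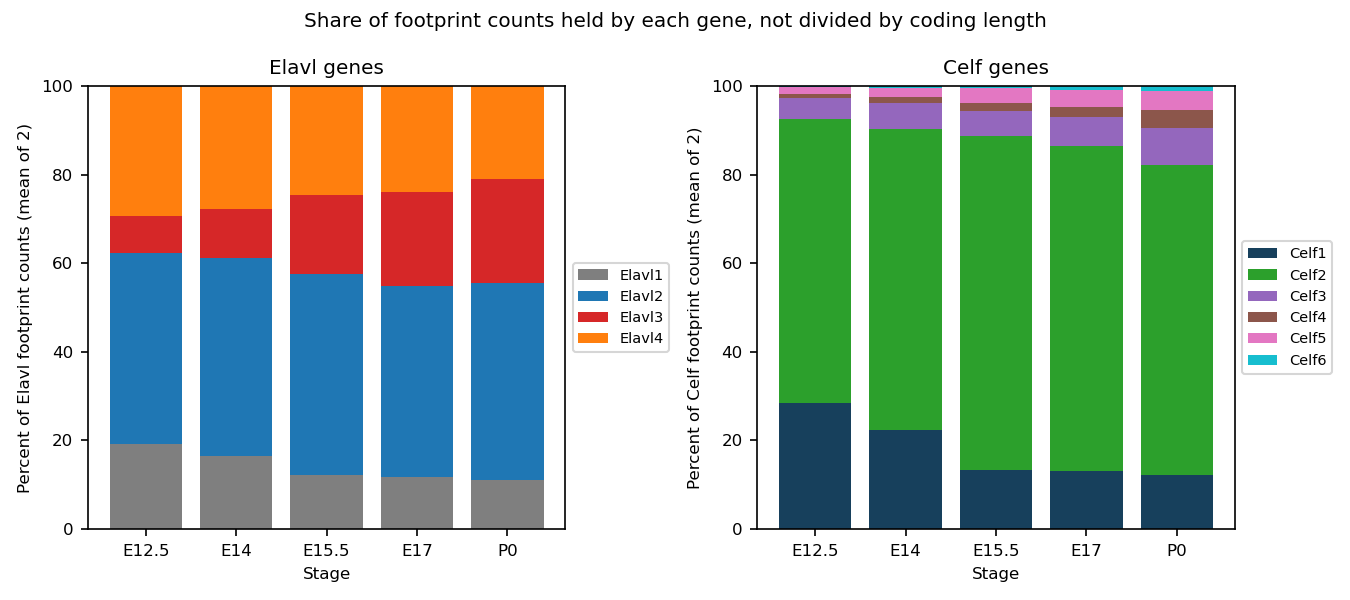
Percent of the family's footprint counts (mean of 2 libraries, not divided by coding length) on each Elavl gene, left, and each Celf gene, right, by stage. The Elavl3 segment widens from 8.39% at E12.5 to 23.6% at P0 and the Celf1 segment narrows from 28.4% to 12.3%.

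Ratios of counts between members are likewise free of library scaling. The ratio of Elavl3 to Elavl4 counts was 0.269 and 0.304 at E12.5, 0.427 and 0.372 at E14, then 0.712 and 0.732 at E15.5, 0.894 and 0.889 at E17, and 1.24 and 0.992 at P0. It was higher at each later stage, with no overlap between stages, and differed 3.88-fold between P0 and E12.5. The ratio of Celf2 to Celf1 was 2.28 and 2.22 at E12.5, 3.03 and 3.05 at E14, then 5.64 and 5.68 at E15.5, 5.75 and 5.49 at E17, and 5.03 and 6.52 at P0, so its increase lay before E17. With 2 libraries against 2, the exact two-sided permutation p of such a ratio cannot be smaller than 0.333, the value found for both ratios for P0 against E12.5, so the ratios could not pass 0.05 by design.

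Markers of cell types moved at the same stages. Of all genes tested, 16.5% were called higher and 19.6% lower at E15.5 against E14, and 30.1% and 32% at P0 against E12.5. All 8 neuron markers (among them Tubb3, Dcx and Rbfox3) were higher at E15.5 than at E14 and at P0 than at E12.5, and all passed the test. Their summed level went from 2200 to 2260 CPM at E12.5 to 6360 to 6610 at E15.5 and 7880 to 8920 at P0, with none at 0. All 8 progenitor markers (among them Nes, Sox2 and Mki67) fell in both comparisons, from 1190 to 1260 CPM at E12.5 to 550 to 574 at E15.5 and 187 to 198 at P0, with none at 0. The part of these marker changes in the Elavl and Celf results was not tested.

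Markers of neighbouring tissues and of other cells were also followed between E14 and E15.5, where 16.5% of all genes were called higher and 19.6% lower. The summed choroid plexus markers were at 1150 to 1160 CPM at E14 and 11.4 to 13.7 at E15.5, and all 5 that were tested of 6 listed fell. The 6 meninges markers fell, from 62.9 to 71.3 CPM in sum to 2.53 to 2.89. Of 7 genes listed as ganglionic eminence markers 6 rose, with sums of 32 to 36 CPM at E14 and 118 to 123 at E15.5. Those were Dlx1, Dlx2, Dlx5, Gad1, Gad2 and Lhx6, and Nkx2-1 (0.27 CPM at E14 and 0.40 at E15.5) was not called. Whether their footprints came from the eminence or from cells within the neocortex was not tested. Of 8 glia markers 2 rose and 1 fell at this step, near the shares of all genes. From E12.5 to P0, 7 rose (30.1% of all genes), from sums of 9.35 to 10.7 CPM (with S100b at 0) to 93.3 to 125. Apart from S100b no listed marker was at 0 in both libraries of a stage, and the part of these tissues in the members' changes was not tested.

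**Figure D4:**
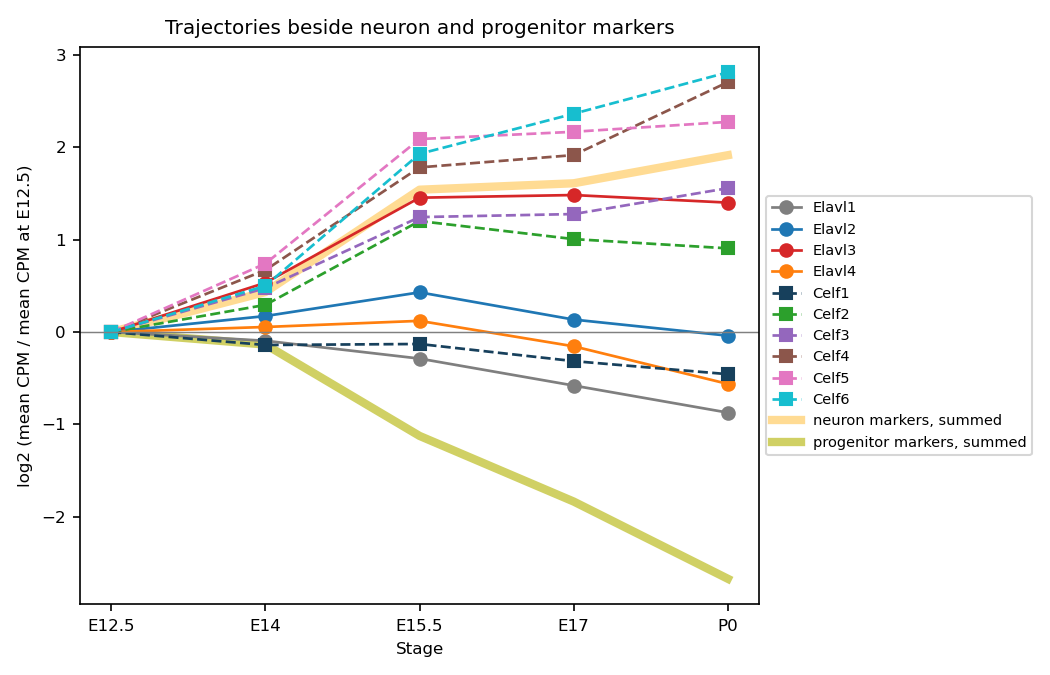
Mean CPM of each gene relative to its E12.5 mean on a log2 axis, by stage, with thick lines for the summed neuron and progenitor markers. Celf4, Celf5 and Celf6 lie above the neuron line from E14 on, Elavl2, Elavl4, Elavl1 and Celf1 stay below it, and the progenitor line drops furthest.

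A list of 11 other genes was taken, whose proteins bind AU-rich elements or oppose or carry out Celf activity (Zfp36, Zfp36l1, Zfp36l2, Hnrnpd, Khsrp, Tia1, Tial1, Mbnl1, Mbnl2, Mbnl3 and Parn). From E14 to E15.5, 0 of the 11 rose and 4 fell (median log2 -0.40), where 16.5% of all genes rose and 19.6% fell, with limma-voom. From E12.5 to P0, 0 rose and 7 fell (median -0.84), where 30.1% of all genes rose and 32% fell. Zfp36l1, which promotes decay of AU-rich mRNAs, fell by 2.45 from E12.5 to P0 (SE 0.19, adjusted p = 1.14e-05). Hnrnpd, another AU-rich element binding protein, fell by 1.13 (SE 0.22, adjusted p = 0.00209), and Mbnl3, of the Muscleblind family of splicing regulators, fell by 4.25 (SE 0.37, adjusted p = 2.5e-05). Scaled by total counts, the list had 0 higher and 2 lower for E15.5 against E14 (median -0.10), and 3 higher and 5 lower for P0 against E12.5 (median -0.33). With that scaling 32.7% of all genes were higher and 12.3% lower for E15.5 against E14 (median 0.29). For P0 against E12.5, 47.8% were higher and 18.6% lower (median 0.51).

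A list of 8 transcripts described as bound by neuronal Elavl proteins had 3 genes higher and 2 lower at E15.5 against E14 (median 0.28; 16.5% and 19.6% of all genes), and 5 higher and 1 lower at P0 against E12.5 (median 1.70; 30.1% and 32% of all genes). Scaled by total counts, it had 5 higher and 2 lower (median 0.58), and 7 higher and 1 lower (median 2.23), in these comparisons. With that scaling 32.7% of all genes were higher and 12.3% lower in the first comparison (median 0.29). In the second, 47.8% were higher and 18.6% lower (median 0.51). Mapt, which encodes tau, rose by 3.94 from E12.5 to P0 (SE 0.11, adjusted p = 3.74e-07). Gap43 rose by 3.03 (SE 0.17, adjusted p = 2.52e-06) and Satb1, a chromatin organiser of cortical neurons, by 2.93 (SE 0.15, adjusted p = 1.45e-06). Msi1, an RNA-binding protein of neural progenitors, was the gene that fell, by 2.50 (SE 0.13, adjusted p = 1.44e-06). Nothing measured here shows binding of these transcripts in this tissue.

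The members' patterns were compared with each other and with the 4559 genes of at least 500 counts on average, by Pearson's r of log2(CPM + 1) over the 10 libraries. All points share the same libraries and a common course over stages, so r is a description. Elavl3 and Celf5 were most alike among the members (r = 0.992), followed by Celf3 with Celf4 and with Celf5 (r = 0.987 for each). Elavl1 and Celf1 were alike (r = 0.935), Elavl1 and Celf6 were opposed (r = -0.929), and Elavl2 was unrelated to Celf4 (r = 0.0098). Every r here and below used TMM-scaled CPM and was not computed with total counts. Scaled by total counts, Elavl1 was lower at P0 (129.2 and 160.3 CPM) than at E12.5 (188.7 and 179.4). Celf1 was higher at P0 (406.9 and 400.2) than at E12.5 (376.3 and 390) with that scaling.

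Among all genes, Elavl3 was most like Ttc28, Ube2ql1 and Actl6b (r = 0.995 to 0.996), and Celf5 was most like Cdk5r1, Actl6b and Cacnb3 (r = 0.997 to 0.999). Celf4 was closest to Dlg4, Gdap1l1 and Phf24 (r = 0.997 to 0.999), Celf3 to Rab3a, Psd2 and Nmnat2 (r = 0.997), and Celf6 to Mcf2l, Gng3 and Bin1 (r = 0.995 to 0.996). Celf2 was closest to Gsk3b, Cep170 and Pdp1 (r = 0.986 to 0.994). Elavl1 was most like Tardbp, Rrm1 and Seh1l (r = 0.992 to 0.996), Celf1 like Rbbp4, Psma5 and Sephs1 (r = 0.975 to 0.978), and Elavl4 like Ppp2r1b, Wdr26 and Psme2 (r = 0.969 to 0.978). Elavl2 had the weakest likeness, to Ascc1, Vipas39 and Ube2h (r = 0.92 to 0.948).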

How the data were processed

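Whole-number footprint counts per gene were deposited by the authors for 10 neocortex libraries, with totals that differ between libraries. According to the methods of the study, adapter ends were cut off, duplicate reads collapsed, rRNA, tRNA and snoRNA reads discarded with Bowtie 2, and the rest aligned with STAR (version 2.7.0 in the submitters' processing notes, an earlier version in the methods) to the coding transcripts and the genome of GENCODE release M12, keeping reads that match several places. The methods then estimate isoform abundance with DeepShape-prime and length-corrected gene counts with tximport. Whether the deposited table is that output or an earlier count was not settled, so its counts, CPM and shares may or may not carry that correction. Near-identical paralogue sequence could therefore share reads.

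Symbols matched 22274 of 22373 identifiers. Counts were fitted in R 4.3.3 with limma-voom (limma 3.58.1) after TMM scaling (edgeR 4.0.16), with 1 coefficient per stage over all 10 libraries, and two-sided tests adjusted by Benjamini-Hochberg over 13484 genes. Alternatives used edgeR's quasi-likelihood test, DESeq2 1.42.0, other scalings and filters, quality weights, a replicate block and omitted libraries. The code was tested on simulated counts. Total counts of 7544404 to 36129988 set the precision, and counting error was not treated apart from replicate spread. The named genes were all members, the 3 largest called changes (mean of at least 100 counts) for P0 against E12.5 in each of the 2 other pathway lists, and the 3 genes most like each member. Msi1 and the marker examples were named outside this rule, with their values known. The members and lists were chosen with earlier results of these data known. No columns of other samples were present.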

Additional observations from a re-analysis of the deposited data

How the results depend on the processing

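The calls that answer E15.5 against E14 (6), P0 against E12.5 (9) and the F test (9) stayed within 1.5 times under every alternative run. At E14 against E12.5 the count of 0 became 4 with DESeq2, 4 with quality weights, 3 with total counts only and 1 with a filter of 100 footprints, and 0 to 5 with 1 library left out. At E17 against E15.5 the count of 0 became 1 with quality weights and 1 with only the stages compared, and 0 to 1 with 1 library left out. At P0 against E17 the count of 2 became 1 with quality weights and 0 with only the stages compared, and 1 to 5 with 1 library left out. With only the stages compared, no gene at all was called at that step, and Celf1 lost its call for P0 against E12.5 (-0.43, adjusted p = 0.0693). The share of all genes called moved too. With quality weights it went from 0.638% to 4.86% at E14 against E12.5. It went from 9.04% to 27.6% at E17 against E15.5, and from 20.5% to 5.18% at P0 against E17. At E14 against E12.5 it was 2.96% with DESeq2, 1.06% with total counts only and 1.19% with the filter of 100. With only the stages compared, 3267 genes were called at E17 against E15.5, beside 1219 in the main fit. Celf1 for E15.5 against E14 reversed to -0.0057 with DESeq2, -0.0056 with DESeq2 size factors and -0.010 with the filter of 100, and ran from -0.0098 to 0.022 with 1 library left out. Total counts only raised the E15.5 against E14 count from 6 to 8, and reversed Elavl1 at E15.5 against E14 (0.10) and, over P0 against E12.5, Elavl2 (0.48) and Celf1 (0.076), whereas with 1 library left out Elavl2 ran from -0.19 to 0.13. Replicate numbers did not pair the samples in one consistent way. Correlations of deviations between same-numbered libraries ran from -0.645 to -0.109 for E12.5 with the other stages. Among the other stages they ran from -0.0435 to 0.431, and whether those replicates share a structure was not tested. A fit with the replicate block gave 0, 6, 0, 2 and 9 members over the 5 comparisons and 9 by the F test. The causes were not tested. Shares per kilobase were not run, since no coding lengths were used here. Celf6, with 88 counts in its lowest library, was the least precisely measured member.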
